A study of Mus musculus with 12 samples.

Results

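The genes described here encode the aminoacyl-tRNA synthetases, the enzymes that join each amino acid to its transfer RNA (tRNA). The list holds 37 symbols, taken by name from the 35385 gene symbols in the deposited tables and not by their values. Its members and subgroups were chosen with earlier results of these data known. It has 20 cytosolic enzymes, 16 mitochondrial enzymes with symbols ending in 2, and Tarsl2, a threonyl-tRNA synthetase relative that was kept apart from both. Of these, 36 were found under the listed symbol, and Mars1 was found under its older symbol Mars. All 37 passed the filter on low values, so every member was tested.

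Poly(A) RNA was sequenced from mouse OPCs (oligodendrocyte progenitor cells), from which the myelinating cells of the brain arise. They had been made from pluripotent stem cells and grown in DMEM F12 with the supplements B27 and N2max and with rhIGF-1, cAMP, rhNT3 and rhNoggin. After 1 h of attachment in a medium that lets OPCs differentiate, the cells received for 4 h either DMSO as the vehicle, cetylpyridinium chloride (CPC), C12-C14-Alkyl(ethylbenzyl)dimethylammonium chloride (AEBDAC) or methyltrioctylammonium chloride (MTOAC). All 3 compounds are quaternary ammonium salts, and each was given at its own IC75, so doses differed between compounds and their concentrations are not stated. There were 3 libraries for each of the 4 groups, which the labels number but do not describe as separate cultures, so the p-values below measure the spread between libraries, which may be technical. The genotype of the cells is not given in the labels. All groups share the stem cell origin and the medium, and cells in culture lack the axons and other partners of OPCs in brain.

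Cells need charged tRNA in the cytosol and also in mitochondria, where a small set of proteins is made from mitochondrial DNA. The enzymes fall into class I and class II by the fold of the catalytic domain, and several cytosolic ones sit together in the multi-synthetase complex with the scaffold proteins Aimp1, Aimp2 and Eef1e1. When charged tRNA runs short or the endoplasmic reticulum is stressed, phosphorylation of eIF2alpha favours translation of the transcription factor ATF4, which is known to raise amino acid synthesis genes and many cytosolic synthetase genes through C/EBP-ATF response elements.

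The deposited values are TPM, abundances scaled to a fixed library total and to transcript length, so levels of different genes can be set side by side. Deposited totals differed, between 772637 and 797758 TPM per library, so the listed symbols do not add up to that fixed total. The depth is unknown because TPM keep none of it. Vehicle library 1 stood apart, with 86422 TPM in mitochondrially encoded genes against 147539 to 183001 TPM in the other 11 libraries. Of 6 OPC markers, Olig1 (455.7 to 1284 TPM) and Olig2 (262.7 to 537.1 TPM) were high in every library. The others were lower, Sox10 at 7.146 to 60.99 TPM, Pdgfra at 11.45 to 35.58, Cspg4 at 21.27 to 48.88 and Gpr17 at 10.53 to 63.77. The summed level of these 6 was 1530 to 1970 TPM in vehicle and 1220 to 1400 in CPC. In AEBDAC the sum was 1070 to 1380 TPM, and in MTOAC 798 to 1050. Marker sums over all libraries were 2.67 to 13.2 TPM for 4 myelin genes with Mog at 0, 9.11 to 25.3 for 4 astrocyte genes, 24.9 to 40.5 for 4 neuron genes, 4.18 to 13.8 for 4 pluripotency genes with Zfp42 at 0, 0.0313 to 0.587 for 4 microglia genes with Cx3cr1 at 0, and 0.062 to 0.226 for 4 mesenchymal genes with Pdgfrb at 0. The OPC marker sum was lower in every treated library than in any vehicle library, and its part in the synthetase results was not tested. Olig1 weighed most in this sum, with means of 1194 TPM in vehicle, 781.9 in CPC, 681.6 in AEBDAC and 531.4 in MTOAC. Pdgfra and Gpr17 also lay wholly below vehicle under each compound, and Olig2 and Sox10 overlapped vehicle under each. Mean Cspg4 was 31.67 TPM in vehicle, higher in CPC (35.57) and AEBDAC (37.2), and lower in MTOAC (25.66). In these bulk libraries, fewer cells of a type and less RNA per cell cannot be told apart.

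In vehicle-treated OPCs the cytosolic synthetase transcripts were, by their median, more abundant than the mitochondrial ones. The median of the vehicle means was 45.4 TPM over the 20 cytosolic genes and 7.558 TPM over the 16 mitochondrial genes. Of the cytosolic genes 13 lay over 20 TPM, against 2 of the mitochondrial genes, Lars2 and Hars2. Below 10 TPM lay 6 cytosolic and 11 mitochondrial genes.

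Gars, for glycine, led the cytosolic group at 165.3 ± 17.37 TPM (SD, n = 3), followed by Nars, for asparagine, at 100.5 ± 14.81 TPM. Rars at 82.71 ± 2.388, Aars at 79.85 ± 6.135 and Yars at 78.14 ± 6.833 TPM came next and differed by less than the spread between libraries. Gars and Kars each make both a cytosolic and a mitochondrial form of their enzyme, for glycine and lysine, so their levels are not purely cytosolic.

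Lars2, the mitochondrial leucyl enzyme, had the highest level of all 37 members. Its vehicle libraries held 637.2, 777.6 and 1487 TPM, and it made up 83.1% to 92.6% of the summed mitochondrial synthetase level in every library. Among vehicle libraries it was lowest in library 1, which also had the lowest level of mitochondrially encoded transcripts, and whether all of its reads came from this gene was not tested. Without Lars2, the mitochondrial sum was 129.4, 117.1 and 118.8 TPM in vehicle, 101.0, 111.2 and 118.2 in CPC, 115.5, 108.3 and 101.4 in AEBDAC, and 101.7, 104.5 and 101.8 in MTOAC. By this sum AEBDAC and MTOAC lay below all vehicle libraries and CPC overlapped them. No test was run on the sums.

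Several cytosolic members were listed at very low levels although every cell needs their product. Dars, the aspartyl enzyme, lay between 0.0856 and 1.23 TPM in all 12 libraries, Iars, the isoleucyl enzyme, between 0.3045 and 15.77, and Kars between 0.258 and 5.44. In vehicle, Eprs, which carries both the glutamyl and the prolyl activity, was at 3.378 ± 1.145 TPM and Farsa, the catalytic chain of the phenylalanyl enzyme, at 4.993 ± 2.161 TPM, while its partner chain Farsb was at 22.67 ± 7.79 TPM. Qars, the glutaminyl enzyme, varied most in TPM among the vehicle libraries of cytosolic genes, at 107.8, 32.96 and 15.58 TPM. How transcripts were summed to symbols is not given in the sources used here, and the cause of these low or scattered values was not tested.

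**Figure D1:**
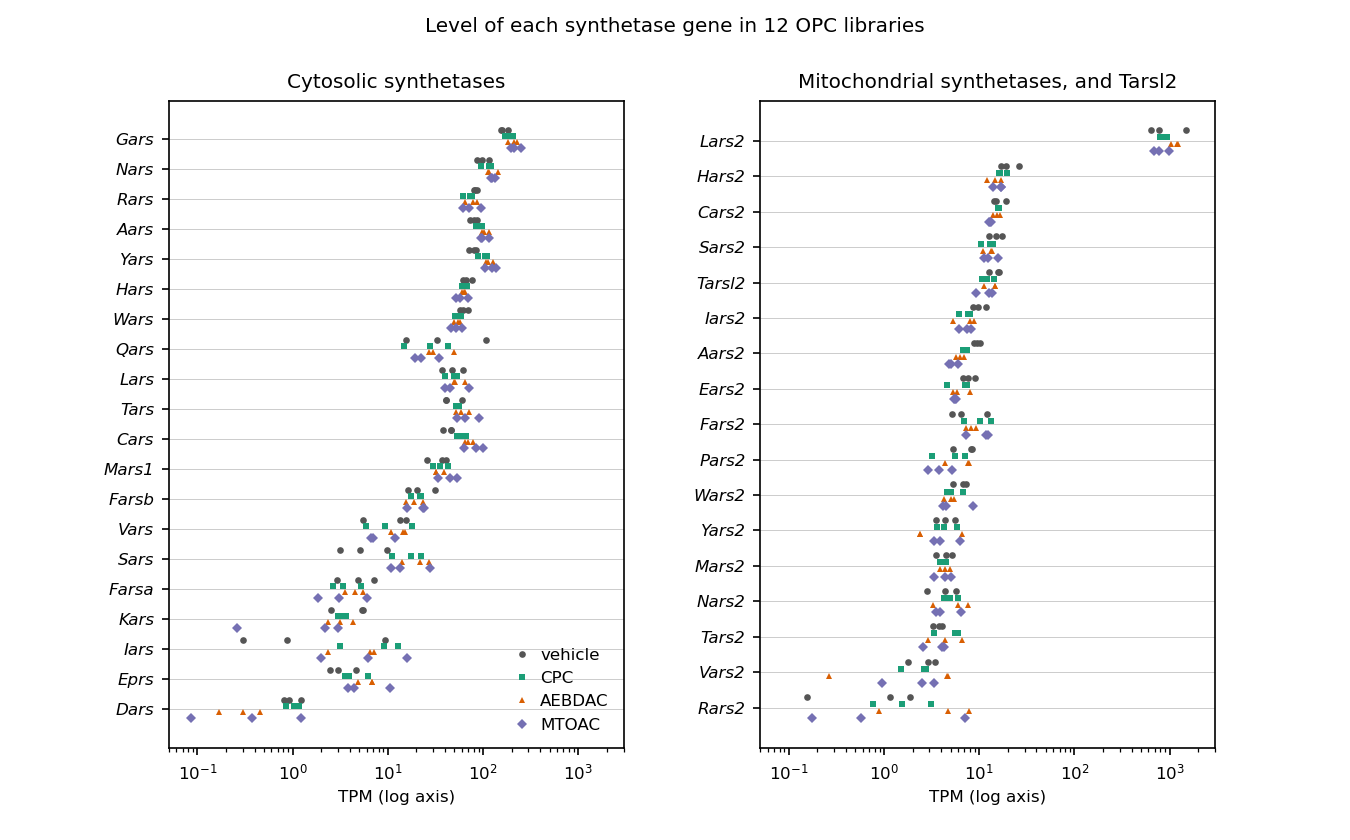
Level of each of the 37 synthetase genes in every library (TPM, log axis), cytosolic genes on the left, mitochondrial genes and Tarsl2 on the right, ordered by the vehicle mean; symbols mark the 4 groups. Most cytosolic genes sit to the right of the mitochondrial ones, except Lars2 at 637.2 to 1487 TPM, while Dars, Iars, Kars and Rars2 scatter widely near the bottom.

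Each compound was then set against vehicle in a single limma fit of all 12 libraries on log2(TPM + 1), a scale that understates changes of low genes, with a gene called at a Benjamini-Hochberg adjusted p under 0.05 over 12009 tested genes. The 3 comparisons share the vehicle libraries and are not independent of each other. The median of all tested genes was shifted by -0.17 log2 under CPC, -0.16 under AEBDAC and -0.22 under MTOAC, and by -0.09, -0.07 and -0.14 without vehicle library 1. Group medians are therefore given as fitted and relative to that median gene.

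Under MTOAC, Cars, the cytosolic cysteinyl enzyme, and Yars, the cytosolic tyrosyl enzyme, rose, while Aars2, the mitochondrial alanyl enzyme, fell. Of all synthetases only these were called, 2 of 20 cytosolic genes in the upward and 1 of 16 mitochondrial genes in the downward direction. Over all 12009 tested genes 95 (0.791%) were called higher and 690 (5.75%) lower under MTOAC. The 1 lower call among 16 mitochondrial genes is near that background. Without vehicle library 1, Cars and Aars2 were called and Yars was not. Without vehicle library 2, or with only the vehicle and MTOAC libraries in the fit, none of these genes was called. Under CPC no synthetase was called, where 4 genes (0.0333%) were called higher and 4 (0.0333%) lower over the table, and under AEBDAC none was called, where 47 (0.391%) were called higher and 106 (0.883%) lower.

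Cars lies on chromosome 7 at 143557230 to 143600090, minus strand, in GRCm38 by GENCODE M21. Its levels were 46.6, 38.2 and 45.95 TPM in vehicle, 52.8, 56.8 and 66.9 in CPC, 64.75, 68.9 and 77.6 in AEBDAC, and 84.1, 63.4 and 100.2 in MTOAC. Every treated library lay above every vehicle library, and the MTOAC libraries overlapped those of AEBDAC and CPC. The log2 fold change was 0.89 ± 0.17 (SE, 95% interval 0.52 to 1.26, limma adjusted p = 0.0162) for MTOAC. For AEBDAC the change was 0.68 ± 0.17 (limma adjusted p = 0.0717) and for CPC 0.42 ± 0.17 (limma adjusted p = 0.31). The MTOAC call was lost without vehicle library 2 (limma adjusted p = 0.0521) and without MTOAC library 1 (limma adjusted p = 0.0511), and with only the 6 libraries of these groups in the fit (limma adjusted p = 0.105).

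Cars2, the mitochondrial cysteinyl enzyme, had no call in any comparison, with mean levels of 16.12 TPM in vehicle, 15.87 in CPC, 15.27 in AEBDAC and 13.09 in MTOAC. The log2 ratio of the TPM of Cars to that of Cars2 within a library was 1.27, 1.43 and 1.63 in vehicle, 1.73, 1.86 and 2.06 in CPC, 2.06, 2.31 and 2.25 in AEBDAC, and 2.73, 2.24 and 2.93 in MTOAC. All 9 treated libraries thus held more Cars relative to Cars2 than any vehicle library. A ratio within a library shows unequal change only. It adds no separate support here, since Cars by itself lay above vehicle in every treated library. Such ratios are given only for the pairs that hold a called gene.

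Yars lies on chromosome 4 at 129189760 to 129219607, plus strand, and overlaps C77080 on the other strand by 30 bases. Its levels were 80.6, 70.4 and 83.4 TPM in vehicle, 88.1, 104.9 and 109.6 in CPC, 106.4, 112.8 and 128.2 in AEBDAC, and 104.0, 123.4 and 136.8 in MTOAC. Again no treated library overlapped the vehicle libraries. In limma, the log2 fold change was 0.62 ± 0.13 (SE, 95% interval 0.33 to 0.92, limma adjusted p = 0.0258) for MTOAC, 0.56 ± 0.13 (limma adjusted p = 0.0687) for AEBDAC and 0.36 ± 0.13 (limma adjusted p = 0.289) for CPC. The MTOAC call was lost without vehicle library 1 (limma adjusted p = 0.0501) or 2 (0.0718), without MTOAC library 2 (0.0826) or 3 (0.0568), and in the fit of only these groups (0.127). Its mitochondrial counterpart Yars2 lay at mean levels of 4.474 TPM in vehicle and 4.564, 3.769 and 4.544 TPM in CPC, AEBDAC and MTOAC, with no call.

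Aars2 lies on chromosome 17 at 45506841 to 45520843, plus strand. Its levels were 8.93, 10.16 and 9.43 TPM in vehicle, 6.90, 7.52 and 6.79 in CPC, 6.24, 6.90 and 5.77 in AEBDAC, and 6.03, 5.003 and 4.81 in MTOAC. All treated libraries lay below all vehicle libraries. The log2 fold change was -0.75 ± 0.16 (SE, 95% interval -1.09 to -0.40, limma adjusted p = 0.0232) for MTOAC, -0.53 ± 0.16 (limma adjusted p = 0.108) for AEBDAC and -0.38 ± 0.16 (limma adjusted p = 0.329) for CPC. Relative to the median gene the MTOAC change was -0.53. The call was lost without vehicle library 2 (limma adjusted p = 0.067) or 3 (0.0612), without MTOAC library 2 (0.0798), after quantile normalization (-0.46 log2, 0.206) and in the fit of only these groups (0.139).

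Aars, the cytosolic alanyl enzyme, stood on the other side of its vehicle level from Aars2 but was not called. It lies on chromosome 8 at 111033144 to 111057664, plus strand, and overlaps Exosc6 on the same strand by 1326 bases, so reads in that stretch cannot be told apart by strand. Its levels were 85.6, 73.4 and 80.55 TPM in vehicle, 85.25, 87.15 and 98.5 in CPC, 101.4, 98.1 and 115.6 in AEBDAC, and 98.55, 96.1 and 114.9 in MTOAC. AEBDAC and MTOAC did not overlap vehicle, and CPC did. Its log2 fold change was 0.18 ± 0.11 (limma adjusted p = 0.53) for CPC, 0.39 ± 0.11 (limma adjusted p = 0.105) for AEBDAC and 0.36 ± 0.11 (limma adjusted p = 0.0792) for MTOAC, and both of the latter were called after quantile normalization (limma adjusted p = 0.03 and 0.0196).

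The log2 TPM ratio of Aars to Aars2 separated treated from vehicle libraries under every compound, as the level of Aars2 did by itself. It was 3.26, 2.85 and 3.10 in vehicle, 3.63, 3.53 and 3.86 in CPC, 4.02, 3.83 and 4.32 in AEBDAC, and 4.03, 4.26 and 4.58 in MTOAC. For tyrosine the groups overlapped in part, with a log2 TPM ratio of Yars to Yars2 of 4.20, 4.34 and 3.91 in vehicle, 4.60, 4.62 and 4.24 in CPC, 5.49, 4.10 and 5.75 in AEBDAC, and 4.94, 4.28 and 5.13 in MTOAC. CPC library 3, AEBDAC library 2 and MTOAC library 2 lay within the vehicle range.

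Sars, the cytosolic seryl enzyme, had the largest fold change of the 6 genes given by library, at low levels and with a wide error. It lies on chromosome 3 at 108424865 to 108445209, minus strand. Its levels were 3.15, 5.05 and 9.81 TPM in vehicle, 11.1, 22.4 and 17.7 in CPC, 14.1, 27.4 and 21.96 in AEBDAC, and 13.3, 27.7 and 10.8 in MTOAC. No treated library overlapped vehicle, and the spread within each group was wide. The log2 fold change was 1.43 ± 0.42 (limma adjusted p = 0.208) for CPC, 1.73 ± 0.42 (limma adjusted p = 0.0709) for AEBDAC and 1.39 ± 0.42 (limma adjusted p = 0.0709) for MTOAC.

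Gars, which lies on chromosome 6 at 55038007 to 55079500, plus strand, was not called either. Its levels were 185.1, 157.9 and 152.8 TPM in vehicle, 168.4, 191.4 and 204.6 in CPC, 182.7, 212.7 and 225.8 in AEBDAC, and 198.9, 209.2 and 250.4 in MTOAC. MTOAC lay wholly above vehicle, and vehicle library 1 overlapped the other groups. The fitted log2 fold change was 0.19 ± 0.13 (limma adjusted p = 0.555) for CPC, 0.32 ± 0.13 (limma adjusted p = 0.209) for AEBDAC and 0.41 ± 0.13 (limma adjusted p = 0.084) for MTOAC, which was called after quantile normalization (limma adjusted p = 0.0336).

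**Figure D2:**
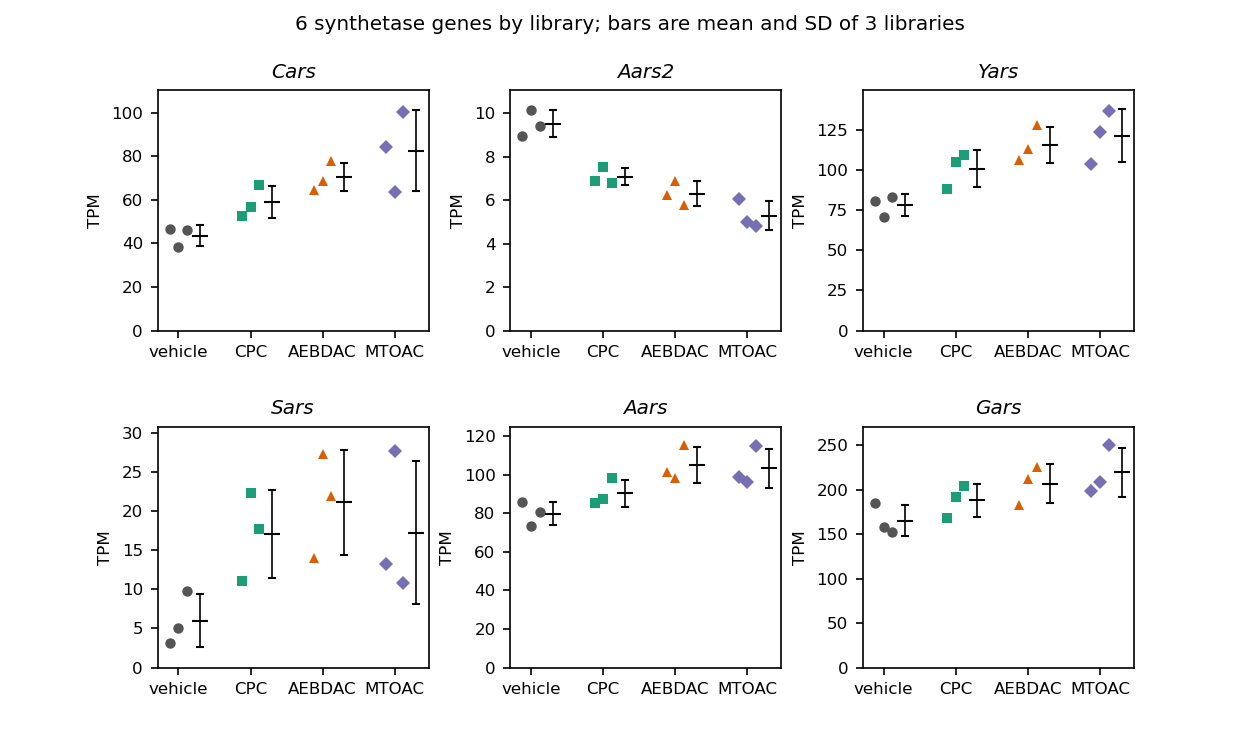
Level (TPM, linear axis from 0) of Cars, Aars2, Yars, Sars, Aars and Gars in each library by group; points are libraries 1 to 3 from left to right, and bars give the mean and SD of 3 libraries. Cars, Yars and Sars lie above, and Aars2 below, all vehicle libraries in each treated group.

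The letters TGATGNAA, the core of the C/EBP-ATF response element bound by ATF4, were searched on both strands (reverse complement TTNCATCA) in the 250 bases before each gene's start, with promoter sequences from RefSeq on GRCm38.p6. Of 28 members with an entry 3 held them (10.7%), against 1056 of 27025 genes (3.91%). All 3 are cytosolic, of 13 cytosolic members with an entry, and 0 of 14 mitochondrial members did. The stretch around the match is shown for Gars and Tars, in which the match lies near the start. Capitals mark the match, which reads as the reverse complement on the strand of the gene.
Gars: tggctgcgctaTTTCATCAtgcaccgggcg
Tars: caggagtcccgTTGCATCAgctggtt
The stretches are at chr6:55037960-55037989 (plus strand) and chr15:11399659-11399684 (minus strand). The first base of the match lies at -30 in Gars and -15 in Tars from the RefSeq start, and the stretch of Tars overlaps an annotated GENCODE exon of the same gene. The letters TGACGTCA, the cAMP response element, which does not overlap the first motif in its letters, were in 478 of 27025 genes (1.77%) and in 0 of the 28 members. Cars, Hars, Hars2, Lars, Nars, Pars2, Rars, Vars and Wars had no promoter entry, and the windows of Yars, Sars and Aars2 did not hold the first motif. A match describes the letters only and shows no binding.

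Atf4 itself had mean levels of 175.9 TPM in vehicle, 336.3 in CPC (limma adjusted p = 0.12), 423.0 in AEBDAC (0.0207) and 366.2 in MTOAC (0.0162). A link between its level and the synthetase values was not tested. Chac1, a known ATF4 target, rose from 5.659 TPM in vehicle to 39.62, 54.23 and 51.44 TPM in the same order. Under MTOAC the log2 fold change was 1.07 for Atf4 and 3.03 for Chac1, beside 0.89 for Cars.

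Tars, the cytosolic threonyl enzyme, was not called. Its levels were 60.0, 40.5 and 41.2 TPM in vehicle, 51.45, 54.4 and 55.4 in CPC, 52.3, 59.0 and 70.6 in AEBDAC, and 64.3, 53.2 and 91.7 in MTOAC. Vehicle library 1 overlapped each treated group. The log2 fold change for MTOAC was 0.54 ± 0.21 (limma adjusted p = 0.135, and 0.037 after quantile normalization).

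As a group the 20 cytosolic genes had a median log2 fold change of 0.05 under CPC, 0.25 under AEBDAC and 0.21 under MTOAC, or 0.22, 0.41 and 0.43 relative to the median gene. These relative medians stayed above 0 under every alternative processing run, at 0.11 to 0.35, 0.30 to 0.46 and 0.28 to 0.47. The direction of single members was mixed, with 11, 12 and 11 of 20 fold changes above 0 in the same order, against 28.9%, 33.0% and 28.3% of all tested genes. Lower OPC marker sums moved with the same groups, as given above.

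Calls in the cytosolic group were few. Under CPC 0 of 20 were called in either direction. At an unadjusted p under 0.05, 3 cytosolic genes (15.0%) were higher and 0 lower, beside 1.81% and 11.8% of all tested genes. With the replicate number as a block, since CPC and vehicle libraries of the same number deviated together, 184 genes were called, 34 higher and 150 lower, and still 0 synthetases of either compartment.

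Under AEBDAC 0 of 20 cytosolic genes were called, and the calls over the table, 47 higher and 106 lower, became 96 and 86 after quantile normalization. At an unadjusted p under 0.05, 5 cytosolic genes (25.0%) were higher, Aars, Cars, Gars, Sars and Yars, and 0 lower, beside 3.95% and 15.2% of all tested genes. Quantile normalization called 3 of them, Aars, Cars and Yars. Under MTOAC the unadjusted count was 7 higher (35%, beside 3.40% of all tested genes), those 5 with Nars and Tars, and 1 lower (5.0%, beside 21%). The lower one was Kars, which went from 4.456 to 1.828 TPM in the mean (-1.06 ± 0.41 log2, limma adjusted p = 0.138). The calls over the table under MTOAC, 95 higher and 690 lower, became 213 and 217 after quantile normalization, and 5 cytosolic genes were then called, Aars, Cars, Gars, Tars and Yars.

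Counting genes whose 3 treated libraries all lay above the 3 vehicle libraries gave 3 of 20 cytosolic genes under CPC (2.58% of all genes), 5 under AEBDAC (5.65%) and 6 under MTOAC (3.99%). Those wholly below vehicle were 1 under CPC, Rars (18.0% of all genes), 1 under AEBDAC, Dars (19.2%), and 0 under MTOAC (22.4%). These counts were not tested as a set. Eprs, above vehicle under AEBDAC only, had a log2 fold change of 0.73 ± 0.34 there (limma adjusted p = 0.272), and Nars, above vehicle under MTOAC, of 0.34 ± 0.14 (limma adjusted p = 0.166).

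By their medians the cytosolic genes outside the multi-synthetase complex were shifted further up than those in it. The 12 cytosolic genes outside it had medians relative to the median gene of 0.33 under CPC, 0.48 under AEBDAC and 0.57 under MTOAC, and held both upward calls. The 8 complex members, Dars, Eprs, Iars, Kars, Lars, Mars1, Qars and Rars, had relative medians of 0.18, 0.11 and 0.19 and 0 calls, and 4 of 8 lay above 0 as fitted under each compound. Low or scattered genes make up more of the complex, with Dars, Iars, Kars, Eprs and Qars, than of the genes outside it, with Farsa, Sars and Vars. The scale of the fit understates changes of low genes, so the subgroups are not equally well measured. The difference between the subgroups was not tested. Iars illustrates the scatter, at 0.882, 0.3045 and 9.42 TPM in vehicle and 15.77, 1.97 and 6.21 TPM in MTOAC, with a log2 fold change of 1.27 ± 0.82 (limma adjusted p = 0.371).

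By enzyme class the medians lay closer together. The 9 class I genes had relative medians of 0.16, 0.35 and 0.30 under CPC, AEBDAC and MTOAC, and the 10 class II genes 0.25, 0.28 and 0.36, with Eprs, which belongs to both, left out. Both upward calls, Cars and Yars, are class I. Class II held 5 of the 7 cytosolic genes with an unadjusted p under 0.05 in the upward direction under MTOAC, which were Aars, Gars, Nars, Sars and Tars.

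The mitochondrial genes lay near the median gene. Their median log2 fold change was -0.11 under CPC, -0.11 under AEBDAC and -0.19 under MTOAC, or 0.06, 0.06 and 0.03 relative to the median gene, and over the alternatives these relative medians ran from -0.05 to 0.17, -0.06 to 0.10 and -0.13 to 0.13, so their sign is not fixed. Beside 8530, 8040 and 8608 of 12009 tested genes, fold changes below 0 were found in 11, 10 and 13 of the 16 mitochondrial genes. At an unadjusted p under 0.05, 0 were higher in any comparison, and 1 (Aars2), 2 (Aars2 and Hars2) and 2 (Aars2 and Pars2) were lower. These are 6.25%, 12.5% and 12.5% of 16, not above the 11.8%, 15.2% and 21% of all tested genes that were lower at the same level.

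Wholly below vehicle lay 2 of 16 mitochondrial genes under CPC, 1 under AEBDAC and 5 under MTOAC. Over all tested genes 18.0%, 19.2% and 22.4% did the same. Wholly above vehicle lay 0 of 16 under any compound, beside 2.58%, 5.65% and 3.99% of all tested genes. Those below under MTOAC were Aars2, Cars2, Ears2, Iars2 and Pars2. Pars2, the mitochondrial prolyl enzyme, was at 8.12, 5.28 and 8.39 TPM in vehicle and 5.175, 2.87 and 3.81 TPM in MTOAC (-0.74 ± 0.31 log2, limma adjusted p = 0.165). Iars2, the mitochondrial isoleucyl enzyme, was at 10.06 TPM in the vehicle mean and 7.227, 7.43 and 7.28 TPM in CPC, AEBDAC and MTOAC. Tarsl2 had mean levels of 14.86, 12.33, 13.55 and 11.84 TPM in vehicle, CPC, AEBDAC and MTOAC and no call.

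**Figure D3:**
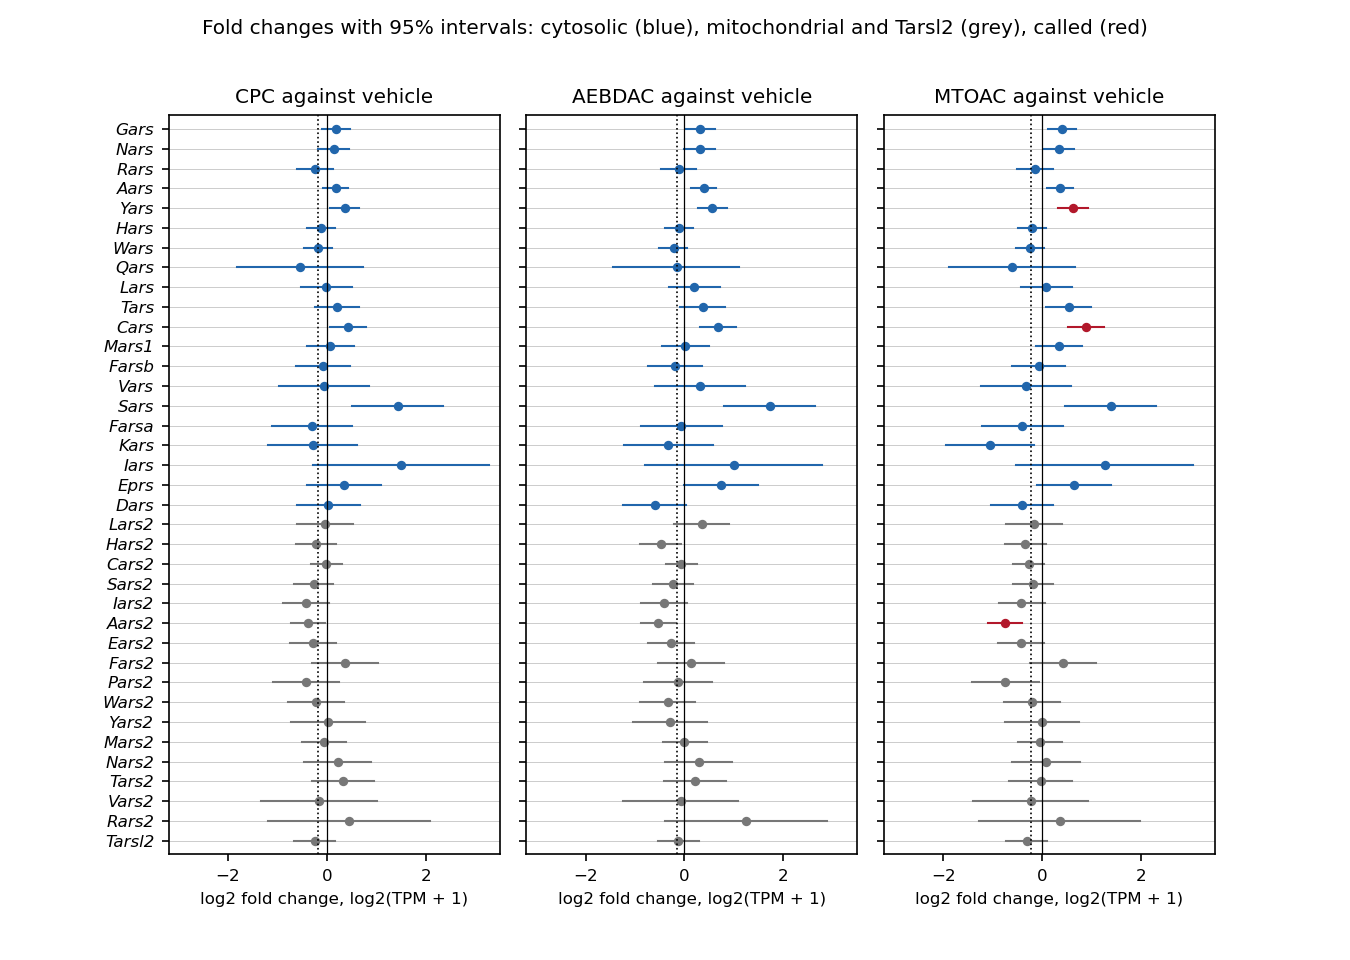
Fold change of each synthetase against vehicle (log2, on the log2(TPM + 1) scale) under CPC, AEBDAC and MTOAC; points are limma estimates, lines 95% intervals, and the dotted line the median of all tested genes. Called genes are red, only under MTOAC: Cars and Yars to the right and Aars2 to the left.

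For 13 amino acids the list holds 1 cytosolic and 1 mitochondrial gene, for threonine with Tarsl2 left apart. In these pairs the change of the cytosolic gene was set against that of the mitochondrial one. Phenylalanine, with both chains Farsa and Farsb in the cytosol, and glutamate and proline, which share Eprs there, were not among these pairs. The cytosolic change was the larger in 10 pairs under CPC, 11 under AEBDAC and 10 under MTOAC, with median differences of 0.11, 0.36 and 0.40 log2. The pair for arginine went the other way under every compound, with Rars2 listed at only 0.156 to 7.88 TPM. So did phenylalanine outside the pairs, with log2 fold changes under CPC, AEBDAC and MTOAC of -0.31, -0.07 and -0.40 for Farsa, -0.08, -0.19 and -0.06 for Farsb, and 0.37, 0.13 and 0.43 for Fars2, none called. The pairs for serine and isoleucine had the largest differences, 1.57 and 1.69 log2 under MTOAC, on low and scattered cytosolic values.

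Per library, the mean log2(TPM + 1) of the 20 cytosolic genes minus that of the 16 mitochondrial genes was 1.37, 1.16 and 1.31 in vehicle, 1.54, 1.51 and 1.44 in CPC, 1.38, 1.59 and 1.70 in AEBDAC, and 1.64, 1.48 and 1.78 in MTOAC. Every treated library lay above every vehicle library, by as little as 0.01 between AEBDAC library 1 and vehicle library 1. The cytosolic mean alone overlapped, at 4.77, 4.42 and 4.69 in vehicle and 4.87, 4.64 and 4.88 in MTOAC. The summed TPM of the cytosolic genes overlapped too, at 1072, 810.5 and 880.3 TPM in vehicle and 1035, 1005 and 1261 TPM in MTOAC, and the highest vehicle sum was that of library 1, which also held the high value of Qars.

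**Figure D4:**
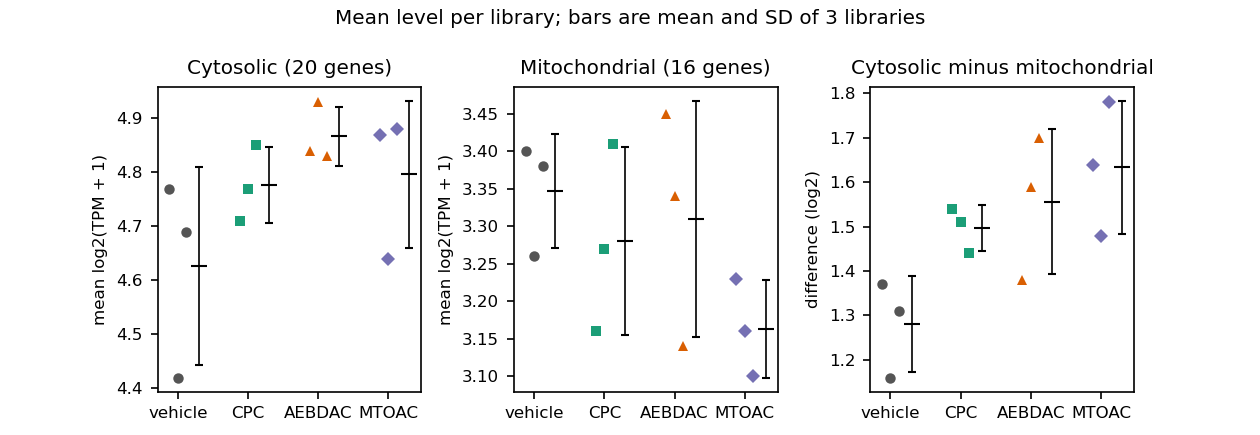
Mean log2(TPM + 1) per library over the 20 cytosolic genes, over the 16 mitochondrial genes, and their difference; points are libraries, bars the mean and SD of 3 libraries, and the axes do not start at 0. In the right panel all treated libraries, 1.38 to 1.78, lie above the vehicle libraries, 1.16 to 1.37.

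Between compounds no synthetase was called in any of the 3 pairs compared, where 0 of 12009 genes (0.0%) were called for AEBDAC against CPC, 0 (0.0%) for MTOAC against CPC and 0 (0.0%) for MTOAC against AEBDAC by limma. Over all genes, 211, 449 and 307 had an unadjusted p under 0.05 in the same order. Doses were not matched, so the values are set side by side only. Among the 37 members, 0, 2 and 0 had an unadjusted p under 0.05, and the 2 were Cars and Aars2 for MTOAC against CPC. They are 5.41% of the members, near the 3.74% of all tested genes in that comparison.

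MTOAC has octyl chains and no aromatic ring, and CPC has a pyridinium ring and a cetyl chain. Whether structure bears on the values was not tested. MTOAC differed from CPC in Cars by 0.46 log2 (95% interval 0.10 to 0.83, limma adjusted p = 1.0) and in Aars2 by -0.37 (95% interval -0.71 to -0.02, limma adjusted p = 1.0). AEBDAC, with its ethylbenzyl group, differed from CPC in Cars by 0.26 (95% interval -0.11 to 0.63), and MTOAC from AEBDAC by 0.21 (95% interval -0.16 to 0.57). For Yars the differences were 0.20 (-0.10 to 0.49) for AEBDAC against CPC, 0.26 (-0.03 to 0.56) for MTOAC against CPC and 0.06 (-0.23 to 0.36) for MTOAC against AEBDAC. For Sars the intervals were wide, from -0.96 to 0.88 for MTOAC against CPC. A p over the threshold does not show that the compounds act alike.

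The wider machinery of tRNA charging was tested in the same fit. Of 26 partner genes, all tested, 0 were called under CPC, 0 under AEBDAC and 1 under MTOAC (3.85%, beside 6.54% of all tested genes called in either direction), and their medians relative to the median gene were 0.03, -0.06 and -0.01. The called gene was Dtd2, an editing factor for wrongly charged tRNA, at 16.92, 13.66 and 12.09 TPM in vehicle and 8.21, 6.77 and 5.72 TPM in MTOAC. It fell by 0.95 ± 0.25 log2 (SE, limma adjusted p = 0.0474). Its call under the alternatives is not given here.

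Among the scaffold genes of the multi-synthetase complex, Eef1e1 was at 28.4, 34.9 and 32.9 TPM in vehicle, 33.8, 51.6 and 43.6 in CPC, 47.55, 49.1 and 45.9 in AEBDAC, and 40.2, 48.5 and 41.9 in MTOAC. AEBDAC and MTOAC lay above vehicle, with log2 fold changes of 0.56 ± 0.15 (limma adjusted p = 0.0928) and 0.43 ± 0.15 (limma adjusted p = 0.114). Aimp1 and Aimp2 had means of 1.275 and 7.431 TPM in vehicle and 3.447 and 4.431 TPM in MTOAC, on opposite sides and without a call (limma adjusted p = 0.0691 and 0.242). In CPC the means were 3.316 and 3.27 TPM, Aimp1 wholly above and Aimp2 wholly below vehicle, without a call (limma adjusted p = 0.227 and 0.215). In AEBDAC they were 1.775 and 4.855 TPM, and both genes overlapped vehicle. The 5 elongation factor genes, Eef1a1, which carries charged tRNA to the ribosome, its exchange factor subunits Eef1b2, Eef1d and Eef1g, and Eef2, which drives translocation, had 0 calls and 0 with an unadjusted p under 0.05 in each comparison with vehicle. The 6 mitochondrial partner genes had 0 calls.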

How the data were processed

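Members, lists and subgroups were chosen with earlier results of these data known. Poly(A) RNA from 12 OPC libraries, 3 in each of the groups vehicle, CPC, AEBDAC and MTOAC, was grouped by the treatment in the labels. The authors deposited 1 table of TPM values per library, for 35385 symbols. The submitters' processing notes name Salmon and the build mm10. Its version is not given in the sources used here, nor is the annotation. TPM are relative to each library's total, so a rise of abundant transcripts lowers all others, and the kit is not described as marking strand, so overlapping genes cannot be separated by strand.

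A gene was tested if 3 or more libraries had 1 TPM or more, which left 12009 genes. The test ran on log2(TPM + 1) with limma 3.58.1 (trend and robust moderation) in R 4.3.3, with 4 group means and no further term. Two-sided p-values were adjusted by Benjamini and Hochberg over all tested genes, with calls under 0.05. With 3 libraries a group, an exact permutation test has 0.1 as its smallest p. The script was tested on simulated data. The design had provided for either unit, and the one for TPM applied. No 2 libraries held identical values.

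Values by library are given for every member called against vehicle and then for those with the smallest unadjusted p, to 6 genes. Cars, Aars2 and Yars are the called ones. Further members given by library were chosen after their values were seen. Coordinates are from GENCODE M21 on GRCm38. Protein sequences were not used here, and 1 promoter stretch is not reported here.

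Replicate numbers come from the sample titles. Libraries with the same number were checked for shared deviations from the group mean, correlated across genes. The correlations were 0.34, 0.31 and 0.23 between vehicle and CPC. Between CPC and AEBDAC they were 0.28, 0.42 and 0.23. Between AEBDAC and MTOAC they were 0.33, 0.36 and 0.30. All exceed 0.1, which was the threshold for pairing, and the other 3 comparisons did not meet it. Alternatives were a pseudocount of 0.1, no filter, quantile normalization, rescaling without mitochondrially encoded genes, a fit of only the groups compared, the replicate number as a block, and leaving out each library in turn.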

Additional observations from a re-analysis of the deposited data

How the results depend on the processing

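With 3 libraries per group, few genes pass the threshold, and TPM leave the depth behind each value unknown. No fold change of the 6 genes given by library changed sign in any alternative. The cytosolic calls under MTOAC, 2 in the fit reported, became 5 after quantile normalization, 0 with only the groups compared and 4 under the replicate block, and the mitochondrial call, 1, became 0, 0 and 1. Under AEBDAC quantile normalization called 3 cytosolic genes, and the block called 4 (Aars, Cars, Sars and Yars) with 1 mitochondrial gene (Aars2). For same-numbered libraries the correlations with vehicle were 0.08, 0.25 and 0.03 under AEBDAC and -0.03, 0.35 and -0.19 under MTOAC. Not all exceed 0.1, so the rule for pairing was not met there. Whether these libraries share more than a number was not tested. In the 3 comparisons where the numbers paired the libraries the block changed no synthetase call. Leaving out 1 library gave 0 to 2 cytosolic and 0 to 1 mitochondrial calls under MTOAC, and 0 synthetase calls in every other comparison. Over all genes, the 8 calls under CPC became 16 after quantile normalization (12 higher and 4 lower), 0 with only these groups, 184 with the block and 1 to 5 without single libraries. The 153 under AEBDAC became 38 with no filter, 3 with only these groups, 1072 with the block and 9 to 104 without single libraries, and the 785 under MTOAC 404 with no filter, 430 after quantile normalization, 17 with only these groups, 1904 with the block and 149 to 573 without single libraries. Between compounds, no filter gave 1 call for AEBDAC against CPC and 1 for MTOAC against CPC, only the groups compared gave 1 for AEBDAC against CPC and 1 for MTOAC against AEBDAC, and single libraries left out gave 0 to 1 for MTOAC against CPC. The fits of only the groups compared rest on fewer libraries. The cause of the other shifts was not tested.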
